A study of Mus musculus with 24 samples.

Results

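Cd3d, Cd3e, Cd3g, Cd4, Cd8a, Gzmk, Ccl5, Nkg7, Cxcr6 and Pdcd1, 10 genes of T and natural killer (NK) cells, were followed through kidney cortex RNA of old mice. They were chosen by gene symbol, 10 of the 16921 genes in the deposited table, and all 10 passed the filter on low counts that left 15165 genes for testing. The mice were males on the C57BL6/J background, sampled at 22 months of age, and either lacked FGF21 (KO) or were wild type (WT). From 3 months of age they ate a diet with 5% casein (LP) or 20% casein (NP), freely available, which gave KO_LP, KO_NP, WT_LP and WT_NP with 6 libraries each. FGF21 is a liver hormone whose blood level goes up when dietary protein is low. The labels do not say how the FGF21 allele was made. They give each library its own identifier without stating how many animals it came from, so the p-values measure the spread between libraries.

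T cells recognise antigen through a receptor that signals by way of the CD3 subunits, with CD4 or CD8 as a coreceptor for MHC class II or class I. Cytotoxic T cells and NK cells share granule and chemokine genes such as Nkg7 and Ccl5, while the CD3 subunits mark T cells. Lymphocytes gather in kidneys of old animals, and CD8 T cells with Gzmk and Pdcd1 are known from tissues of old mice.

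Libraries were made with Lexogen QuantSeq, which reads the 3′ end of each transcript, and held 8.47 to 21.1 M counts (median 15.0). KO_LP libraries held 8.47 to 14.1 M, against 15.2 to 18.4 M in WT_LP. Levels are given in CPM, counts relative to the library size after TMM scaling. Every library held at least 22 counts of Cd3d, a gene of T cells. The markers that define NK cells were near the limit of detection: Klrb1c lay between 0.148 and 1.38 CPM and Klre1 between 0 and 1.21 CPM over all 24 libraries, and Ncr1 was not analysed here. Proximal tubule RNA, the main content of cortex, was plentiful, with the phosphate transporter Slc34a1 at a mean of 1989 CPM in KO_LP and 3187 CPM in KO_NP. Fgf21 itself was not analysed here, so the genotype rests on the labels. In bulk RNA, more cells of a type and more RNA per cell cannot be told apart.

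The CD3 genes sit together on chromosome 9 in GRCm38, and their promoters are shown because they encode subunits of 1 complex from neighbouring start sites. Cd3g (chr9:44969572-44980431, minus strand) and Cd3d (chr9:44981786-44987339, plus strand) point away from each other, with start sites 1355 bases apart. Cd3e (chr9:44998740-45009627, minus strand) faces Cd3d, and the cluster spans 40.06 kb. The 250 bases before each start are given 5′ to 3′ on the gene's own strand, from RefSeq on GRCm38.p6: chr9:44981536-44981785 for Cd3d, chr9:45009612-45009861 for Cd3e and chr9:44980432-44980681 for Cd3g. The RefSeq start of Cd3e differs from the GENCODE start used for the gene's position, so the last bases of its window, with most of its CTTCCT, lie inside the GENCODE gene. Capitals mark, on either strand, the letters AGGAAG (or CTTCCT), bound by ETS factors, and CAGGTG (or CACCTG), an E-box bound by E proteins.
Cd3d: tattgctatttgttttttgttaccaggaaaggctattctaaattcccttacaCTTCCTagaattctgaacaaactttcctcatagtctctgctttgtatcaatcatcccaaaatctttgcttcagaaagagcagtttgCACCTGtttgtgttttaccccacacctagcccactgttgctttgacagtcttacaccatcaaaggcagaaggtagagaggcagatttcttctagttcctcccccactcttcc
Cd3e: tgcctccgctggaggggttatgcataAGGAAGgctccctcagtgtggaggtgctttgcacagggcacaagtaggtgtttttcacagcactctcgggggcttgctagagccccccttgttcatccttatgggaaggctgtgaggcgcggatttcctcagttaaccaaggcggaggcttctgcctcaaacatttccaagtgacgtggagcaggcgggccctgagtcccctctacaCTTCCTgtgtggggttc
Cd3g: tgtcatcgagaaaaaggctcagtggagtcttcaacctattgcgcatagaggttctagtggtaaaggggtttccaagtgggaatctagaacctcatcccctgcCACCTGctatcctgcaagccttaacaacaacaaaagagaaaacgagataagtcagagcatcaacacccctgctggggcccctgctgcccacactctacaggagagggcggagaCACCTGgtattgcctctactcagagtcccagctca
The ETS letters stand in the Cd3d and Cd3e windows and in 29.5% of all 32851 promoters of that length, and the E-box in the Cd3d and Cd3g windows and in 17.2%. Windows of 8 of the 10 genes were matched. Over these 8, the ETS letters were also in Nkg7 and Pdcd1, TGTGGT (RUNX, or ACCACA, in 14% of all promoters) in Cxcr6 and Nkg7, and TCACACC (T-box, or GGTGTGA, in 3.3%) in Gzmk and Nkg7. No 2 matches overlap in these windows, and a match says only that the letters are there.

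The summed level of the 10 genes was 71.7 ± 35.2 CPM in KO_LP, 34.2 ± 9.56 in KO_NP, 34.3 ± 23.5 in WT_LP and 43.6 ± 19.8 in WT_NP (mean ± SD, n = 6). Within 3 groups 1 library stood apart. KO_LP 4 had a sum of 139.9 CPM and the highest value of all 24 libraries for 10 of 10 genes. WT_LP 3 summed to 80.4 CPM and was highest in its group for 10 genes. WT_NP 1 summed to 81.5 CPM and was highest in its group for 9, the exception being Gzmk.

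**Figure D1:**
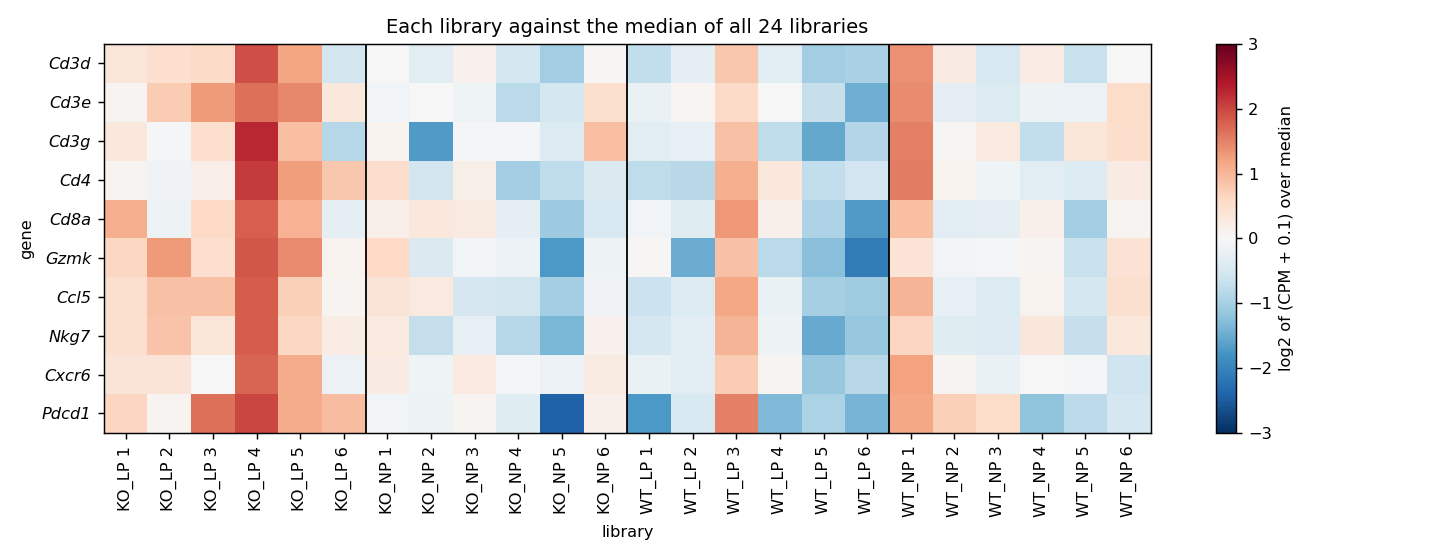
Level of each of the 10 genes in the 24 libraries, in columns grouped as KO_LP, KO_NP, WT_LP and WT_NP, coloured by the log2 of CPM plus 0.1 over the gene's median of all 24 libraries, on a scale from -3 to 3. KO_LP 4, WT_LP 3 and WT_NP 1 show as columns that are red over nearly all 10 genes.

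In KO mice, LP libraries carried more RNA of all 10 genes than NP libraries on average, with log2 fold changes between 0.68 for Cxcr6 and 1.75 for Pdcd1 and a median of 1.19, against 0.03 over all genes tested. Only Cd3e passed the test over all genes. The spread between KO_LP libraries was wide, and none of the 10 had every KO_LP library above every KO_NP library, a separation that 1.65% of all genes showed. In WT mice the same diet contrast had a median of -0.47 over the 10 genes, and none was called.

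**Figure D2:**
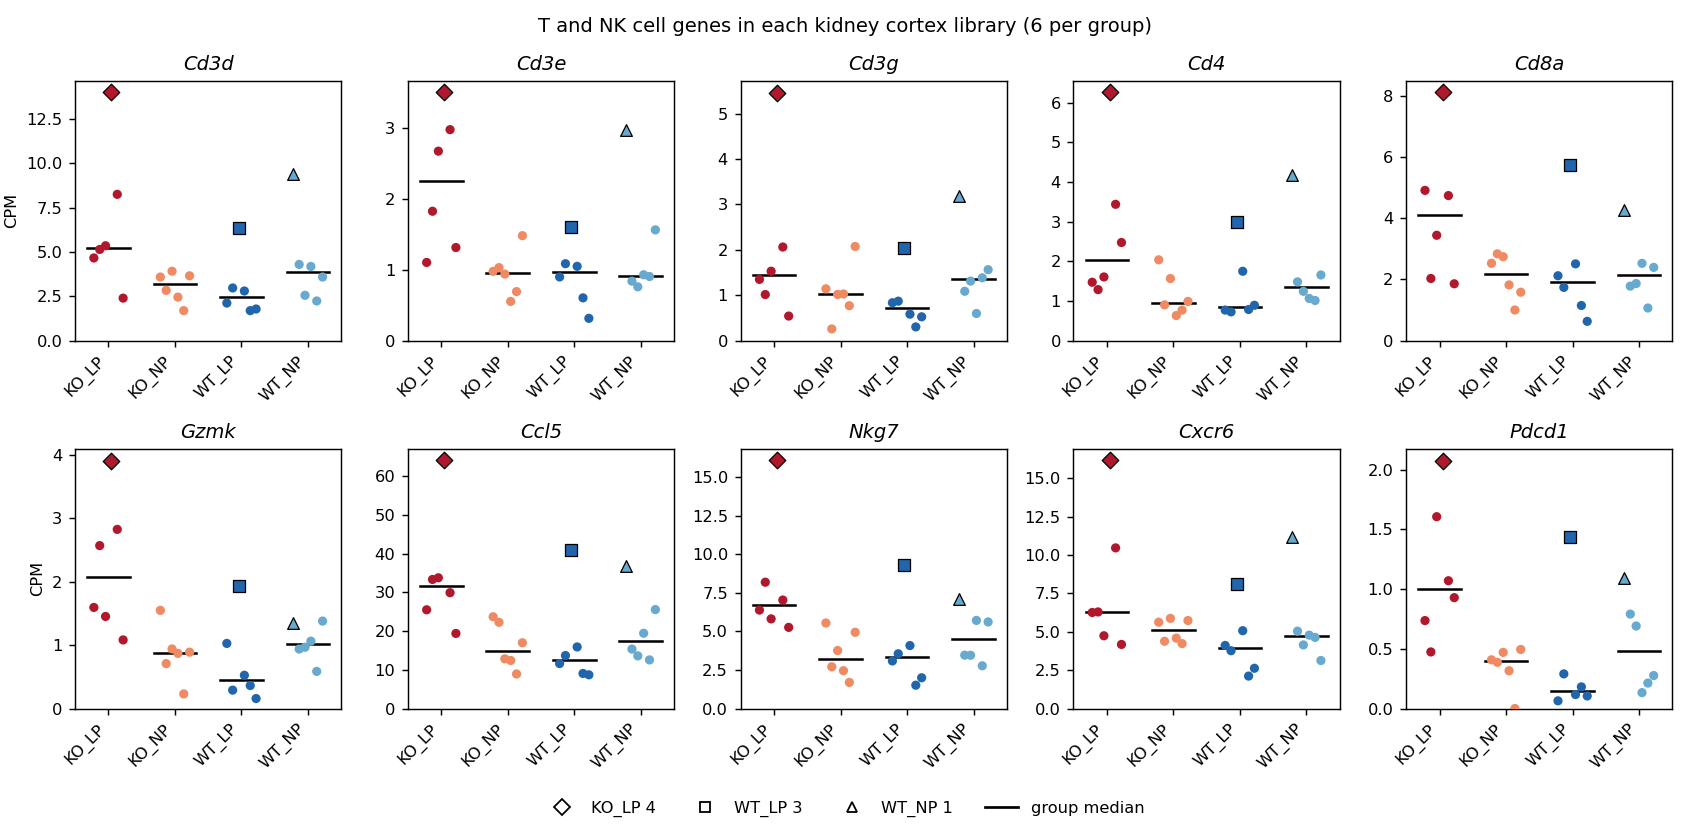
CPM of each of the 10 genes in every library (points, 6 per group, with the group median as a bar), groups in the order KO_LP, KO_NP, WT_LP, WT_NP, and with KO_LP 4, WT_LP 3 and WT_NP 1 as outlined symbols. KO_LP holds the highest point in all 10 panels, and that point is KO_LP 4.

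Cd3e, the subunit present in every CD3 dimer, ranged over 1.10 to 3.51 CPM in KO_LP (median 2.25), 0.554 to 1.48 in KO_NP (0.959), 0.315 to 1.60 in WT_LP (0.974) and 0.759 to 2.97 in WT_NP (0.917). All 6 KO_LP libraries lay above the KO_NP mean, although the ranges overlapped. Cd3e rose on LP in KO mice by 1.27 on the log2 scale (SE 0.382, n = 6 libraries per group), with an adjusted p of 0.0449 in edgeR's quasi-likelihood test with Benjamini-Hochberg adjustment over all genes. It was the 1 gene called of 10, where 7.17% of all genes were called and 3.59% were called higher, so the share called was near the background. The call was lost in 13 of 24 fits without 1 library, with adjusted p between 0.0502 and 0.132: without KO_LP 2, 3, 4 or 5, any KO_NP library, WT_LP 1 or 4, or WT_NP 6. More of the 10 were called without WT_LP 3 (6 genes), WT_NP 1 (5 genes), KO_LP 1 (3 genes) or WT_LP 5 or 6 (2 genes each). Over those 24 fits, 122 to 2006 of all genes were called.

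Cd3d and Cd3g encode the subunits that pair with CD3 epsilon. Cd3d ranged over 2.40 to 14.02 CPM in KO_LP (median 5.25) and 1.69 to 3.92 in KO_NP (3.21), with a log2 fold change of 1.15 (SE 0.399, adjusted p = 0.0701, edgeR). Cd3g ranged over 0.541 to 5.46 CPM in KO_LP (1.44) and 0.258 to 2.07 in KO_NP (1.02), with a log2 fold change of 0.997 (SE 0.516, adjusted p = 0.209, edgeR). For both genes 1 KO_LP library, KO_LP 4, stood far above the other 5, and without it the log2 fold changes were 0.78 for Cd3d and 0.34 for Cd3g.

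The coreceptors mark the helper and the cytotoxic branch of T cells. Cd4, the coreceptor for MHC class II, ranged over 1.29 to 6.26 CPM in KO_LP (median 2.04) and 0.633 to 2.04 in KO_NP (0.945), a log2 fold change of 1.29 (SE 0.459, adjusted p = 0.0765, edgeR). Cd8a, a chain of the coreceptor for MHC class I, ranged over 1.86 to 8.10 CPM in KO_LP (4.09) and 0.9999 to 2.83 in KO_NP (2.17), a log2 fold change of 0.997 (SE 0.435, adjusted p = 0.138, edgeR). For Cd4 all 6 KO_LP libraries lay above the KO_NP mean, and for Cd8a 4 of 6 did. Without KO_LP 4 the log2 fold changes were 0.85 for Cd4 and 0.68 for Cd8a.

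Among the effector genes, Gzmk, a granzyme of memory-type CD8 T cells, ranged over 1.08 to 3.91 CPM in KO_LP (median 2.08) and 0.231 to 1.55 in KO_NP (0.880). Its log2 fold change was 1.39 (SE 0.443, adjusted p = 0.0542, edgeR). Nkg7, a granule membrane protein of cytotoxic cells, ranged over 5.26 to 16.1 CPM in KO_LP (6.70) and 1.69 to 5.54 in KO_NP (3.23), with a log2 fold change of 1.23 (SE 0.384, adjusted p = 0.0517, edgeR). Neither passed the threshold, and for both all 6 KO_LP libraries lay above the KO_NP mean. Nkg7 lies on chromosome 7, 2.176 Mb from Fgf21. Gzmk, as annotated by GENCODE over 54301 bases, overlaps Esm1, a gene of endothelial cells on the opposite strand, over 8440 bases. The RefSeq start of Gzmk lies inside that span, and the overlap with the RefSeq gene was not examined. Whether strand was used in counting is not given in the sources used here, so it is not known whether reads of Gzmk and Esm1 were told apart there. Esm1 averaged 31.3 CPM in KO_LP and 34.8 CPM in KO_NP.

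Ccl5, a chemokine that draws T cells and is itself made by cytotoxic cells, was the best counted of the 10, with 116 to 1119 counts per library. It ranged over 19.4 to 64.3 CPM in KO_LP (median 31.6) and 8.92 to 23.7 in KO_NP (14.9), a log2 fold change of 1.09 (SE 0.373, adjusted p = 0.0682, edgeR). Cxcr6, the receptor for CXCL16 on tissue-resident T cells, ranged over 4.17 to 16.2 CPM in KO_LP (6.27) and 4.23 to 5.87 in KO_NP (5.11). The KO_NP values were the tightest of any gene and group, with an SD of 14.8% of the mean. Its log2 fold change was 0.68 (SE 0.341, adjusted p = 0.196, edgeR), and 0.34 without KO_LP 4. Cxcr6 lies wholly within Fyco1, which is read from the opposite strand and averaged 37.3 CPM in KO_LP and 37.5 CPM in KO_NP. The log2 fold change of Fyco1 was -0.01 (SE 0.0798).

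Pdcd1 encodes PD-1, an inhibitory receptor of activated and exhausted T cells, and was the least counted gene, with 0 to 36 counts per library. It ranged over 0.474 to 2.07 CPM in KO_LP (median 0.999) and 0 to 0.494 in KO_NP (0.397). The library at 0, KO_NP 5, allows up to 0.231 CPM at 3 counts, a limit that covers counting error only. The log2 fold change was 1.75 (SE 0.630, adjusted p = 0.0788, edgeR), the highest of the 10 and the one with the widest error.

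In WT mice, 9 of the 10 genes had a lower mean on LP, and 1 (Cd8a) was level. None was called, and neither was any other of the genes tested (0% of 15165 by edgeR, 580 at an unadjusted p under 0.05, 16 called by DESeq2 and 6 by limma voom). None of the 10 reached an unadjusted p of 0.05, and each had an adjusted p of 0.99996 in edgeR's test. The log2 fold changes lay between -0.82 for Cd3g (SE 0.511) and 0.0025 for Cd8a. Cd3e was -0.53, Gzmk -0.52 and Ccl5 -0.30. For 9 genes 5 of the 6 WT_LP libraries lay below the WT_NP mean. For these genes other than Gzmk, WT_NP 1 was the highest library in that mean. For Gzmk it was WT_NP 6, at 1.38 CPM, with WT_NP 1 at 1.35 CPM. Without WT_NP 1 the median over the 10 genes was -0.084, and without WT_LP 3, the high library of the other group, it was -0.82.

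Among the receptor genes, Cd3d ranged over 1.69 to 6.35 CPM in WT_LP (median 2.46) and 2.24 to 9.38 in WT_NP (3.88). Cd4 ranged over 0.724 to 2.98 CPM in WT_LP (0.838) and 1.01 to 4.17 in WT_NP (1.36). Cd8a ranged over 0.629 to 5.74 CPM in WT_LP (1.93) and 1.06 to 4.27 in WT_NP (2.13). In all 3 the top library of each group lay at more than 2 times the median of its group, and the groups overlapped widely. Gzmk ranged over 0.157 to 1.93 CPM in WT_LP (0.443) and 0.586 to 1.38 in WT_NP (1.01). Nkg7 ranged over 1.51 to 9.27 CPM in WT_LP (3.31) and 2.77 to 7.09 in WT_NP (4.53). Ccl5 ranged over 8.70 to 40.9 CPM in WT_LP (12.7) and 12.6 to 36.9 in WT_NP (17.4). Of the WT libraries, those on LP held for these 3 effector genes both the lowest and the highest value. Cxcr6 ranged over 2.11 to 8.11 CPM in WT_LP (3.94) and 3.13 to 11.1 in WT_NP (4.71). Cd3g ranged over 0.302 to 2.04 CPM in WT_LP (0.709) and 0.598 to 3.18 in WT_NP (1.35). Pdcd1 ranged over 0.0642 to 1.43 CPM in WT_LP (0.149) and 0.133 to 1.09 in WT_NP (0.483), and 5 of the 6 WT_LP libraries held at most 0.290 CPM of this receptor.

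**Figure D3:**
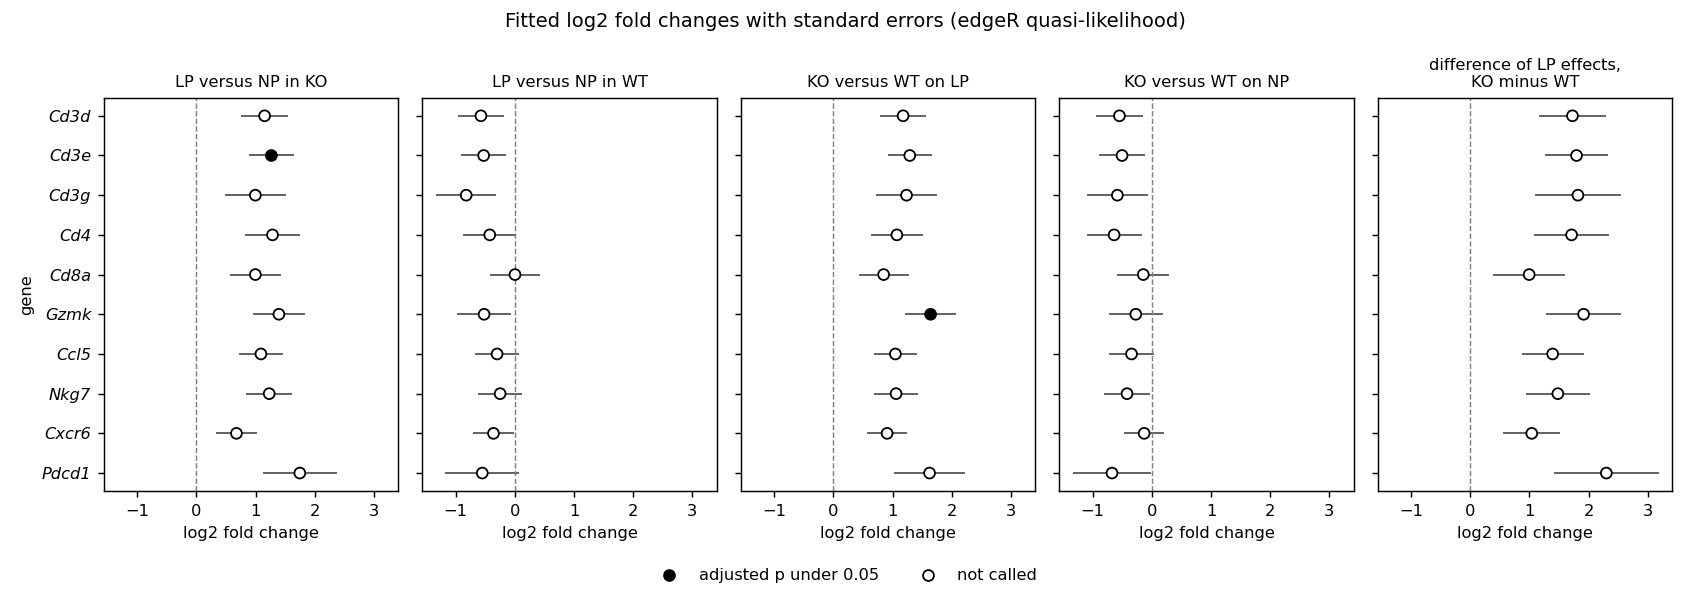
Fitted log2 fold change (points, filled where the adjusted p is under 0.05) with its standard error (bars) of each of the 10 genes, for LP over NP in KO and in WT, KO over WT on LP and on NP, and the LP effect in KO minus that in WT. The filled points are Cd3e for LP over NP in KO and Gzmk for KO over WT on LP.

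The LP effect in KO minus that in WT was above 0 for all 10 genes, between 0.99 for Cd8a and 2.30 for Pdcd1, with a median of 1.72 against 0.03 over all genes. This difference was tested directly. By edgeR it called none of the 10 and 0% of all genes, while 9 of the 10 and 2430 of all genes had an unadjusted p under 0.05, and DESeq2 called 101 of all genes. For Cd3e it was 1.80 on the log2 scale (SE 0.538, adjusted p = 0.173), and for Gzmk 1.91 (SE 0.635, adjusted p = 0.209). A different diet response of the genotypes was thus not shown for any of the 10.

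On LP, all 10 genes averaged higher in KO than in WT, with a median log2 fold change of 1.13 against 0.02 over all genes. Gzmk was the 1 gene called, where 2.93% of all genes were called. It ranged over 1.08 to 3.91 CPM in KO_LP (median 2.08) and 0.157 to 1.93 in WT_LP (0.443). All 6 KO_LP libraries exceeded the WT_LP mean, and a single WT_LP library, WT_LP 3, reached into the KO_LP range. Gzmk was higher by 1.64 on the log2 scale (SE 0.438, adjusted p = 0.0417, edgeR). The call was lost in 9 of 24 fits without 1 library: KO_LP 2, 4 or 5, KO_NP 6, or WT_LP 1, 2, 4, 5 or 6, with adjusted p between 0.0513 and 0.117. Esm1, on the other strand, averaged 31.3 CPM in KO_LP and 52.2 CPM in WT_LP, the opposite direction.

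The next smallest p on LP was that of Cd3e, 1.29 (SE 0.371, adjusted p = 0.0563, edgeR), and the remaining 8 genes lay between 0.85 for Cd8a and 1.63 for Pdcd1. None of the 10 had every KO_LP library above every WT_LP library, against 1.09% of all genes. Single libraries moved these counts. Without WT_LP 3, 8 of the 10 were called (all but Cd3g and Cd4) and the median was 1.54. Without KO_LP 1, KO_LP 6 or WT_NP 1, 2 were called, Cd3e and Gzmk. Without KO_LP 4, none was called and the median was 0.75. Over the 24 fits without 1 library, 180 to 733 of all genes were called.

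On NP, all 10 genes averaged lower in KO than in WT, and none was called, against 0.574% of all genes. The log2 fold changes lay between -0.67 for Pdcd1 and -0.13 for Cxcr6, with a median of -0.46 and adjusted p between 0.601 and 0.918 (edgeR). Without WT_NP 1 the median was -0.16. These contrasts share libraries: KO_LP enters both the diet contrast in KO and the genotype contrast on LP, and KO_NP both the diet contrast in KO and the genotype contrast on NP. Their values are therefore not independent of each other.

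Ordered by mean, KO_LP was first and WT_NP second for all 10 genes. KO_NP and WT_LP took the last places, each with 5 genes above the other. Of neighbours in that order, WT_NP against KO_NP and WT_NP against WT_LP gave no call in the tests above. KO_LP against WT_NP and KO_NP against WT_LP were not tested, and their ranges overlapped for all 10 genes.

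With KO_LP 4, WT_LP 3 and WT_NP 1 left out, an alternative chosen after seeing the data, the median log2 fold change of LP over NP was 0.83 in KO, with none of the 10 called and Cd3e at 1.09 (adjusted p = 0.0529, edgeR). In WT that median was -0.55. For KO over WT on LP it was 1.20 with 7 of the 10 called, where 570 of all genes were. Gzmk was at 2.02 (adjusted p = 0.0104, edgeR). The 3 libraries left out had the highest sums of the 10 genes. They were thus picked on the values tested, so these calls give no separate support. For KO over WT on NP the median was -0.16, while KO minus WT of the LP effect had a median of 1.35, with none called in either.

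Within groups, the genes went up and down together from library to library. After the group means were subtracted, Cd3e and Ccl5 had Pearson's r = 0.80 (permutation p = 2e-05, adjusted p = 0.00014) and Spearman's rho = 0.84 (permutation p = 2e-05, adjusted p = 0.00028) over 24 libraries. Leaving out the 2 libraries farthest from the median of Cd3e, WT_LP 6 and WT_NP 1, gave r = 0.76. The weakest of the 9 other members was Pdcd1, at r = 0.55 (permutation p = 0.0116, adjusted p = 0.0163) and rho = 0.47 (permutation p = 0.0336, adjusted p = 0.047), and r = 0.48 without those 2. All 14 relations of Cd3e form the family for the adjustment. Outside the 10 genes, the leukocyte phosphatase Ptprc (CD45) had r = 0.74 with Cd3e (permutation p = 0.00019, adjusted p = 0.000665) and rho = 0.73 (permutation p = 3e-04, adjusted p = 0.00105), and r = 0.76 without those 2. The macrophage marker C1qa had r = 0.54 (permutation p = 0.0173, adjusted p = 0.022) and rho = 0.41 (permutation p = 0.0736, adjusted p = 0.0859). Cd79a of B cells had r = 0.45 (permutation p = 0.0378, adjusted p = 0.0441) and rho = 0.43 (permutation p = 0.0574, adjusted p = 0.0731). It held 0 to 12 counts per library and fell below the count filter, which limits how closely it can follow Cd3e. Moving with Cd3e was thus not particular to the 10 genes. Slc34a1 of the proximal tubule had r = -0.11 (permutation p = 0.664, adjusted p = 0.715) and rho = -0.12 (permutation p = 0.617, adjusted p = 0.664). It is a single tubule gene, and tubule sums of the libraries that stood apart are given below. Adipoq of adipocytes had r = -0.04 (permutation p = 0.908, adjusted p = 0.908) and rho = 0.04 (permutation p = 0.861, adjusted p = 0.861). With 0 to 45 counts per library, Adipoq also fell below the count filter.

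The genes outside the 10 whose group-centred log2 CPM was most like the mean of the 10, over 24 libraries that share their scaling, were Il2rb (r = 0.943), Thy1 (0.921), Trbc2 (0.911), Ptprcap (0.905), Trac (0.902), Ms4a4b (0.901), Tbc1d10c (0.899), Dtl (0.897), Lmnb1 (0.891) and Gimap3 (0.880). Il2rb is the beta chain of the receptor for IL-2 and IL-15, Thy1 a T cell surface protein, and Trac and Trbc2 the constant regions of the T cell receptor chains. Dtl, which acts in DNA replication, and Lmnb1, which encodes lamin B1 of the nuclear envelope, are expressed in many proliferating cells.

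Among other genes of the T cell receptor complex and its signalling, in KO 21 of 21 tested genes had a positive LP effect, 2 were called higher, where 3.59% of all genes were, and the median was 1.18. The 2 called were Tcf7, a transcription factor of naive and memory T cells, and Zap70, the kinase that binds the activated receptor. Tcf7 averaged 2.33 ± 1.28 CPM in KO_LP and 0.881 ± 0.219 in KO_NP (SD, n = 6 each), and rose by 1.42 (SE 0.413, adjusted p = 0.0413, edgeR). Zap70 averaged 1.54 ± 1.11 CPM in KO_LP and 0.529 ± 0.229 in KO_NP, and rose by 1.58 (SE 0.471, adjusted p = 0.0436, edgeR). KO_LP 4 was the highest library for both, at 4.83 CPM of Tcf7 with the next at 2.44 and 3.56 CPM of Zap70 with the next at 1.76. The receptor's own constant regions were not called: Trac had a log2 fold change of 1.11 (adjusted p = 0.0939) and Trbc2 of 1.06 (adjusted p = 0.0879, edgeR). Cd2, an adhesion receptor of T and NK cells, was at 1.52 (SE 0.472, adjusted p = 0.0507, edgeR).

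NK and cytotoxic effector genes had 0 of 11 tested called and a median of 0.73. Those with the smallest p were Cst7, a cystatin of cytotoxic granules (1.53, adjusted p = 0.0589), the chemokine Ccl4 (1.20, adjusted p = 0.0634) and Eomes, a T-box factor of memory CD8 T and NK cells (1.27, SE 0.495). In the same list Klrk1, the receptor NKG2D, was at 0.24 (SE 0.289, adjusted p = 0.620, edgeR), and Klrb1c averaged 0.725 CPM in KO_LP and 0.554 in KO_NP. In WT, Klrb1c averaged 0.854 CPM on LP and 0.345 on NP, higher on LP by 1.29 (unadjusted p = 0.00395, adjusted p = 0.820, edgeR). There 9 of the 10 genes averaged lower on LP. For KO over WT on LP, Klrb1c was at -0.21 (adjusted p = 0.795, edgeR). Klre1, below the count filter, averaged 0.459 CPM in KO_LP, 0.185 in KO_NP, 0.497 in WT_LP and 0.217 in WT_NP. Of the checkpoint and regulatory genes, 1 of 6 was called higher for LP over NP in KO, where 3.59% of all genes were. Icos, a costimulator of activated T cells, averaged 3.29 ± 2.18 CPM in KO_LP and 1.13 ± 0.302 in KO_NP (SD, n = 6 each), and rose by 1.58 (SE 0.403, adjusted p = 0.0267, edgeR). KO_LP 4 held 7.36 CPM of it and the next library 3.82. The homing receptors and ligands had a median of 0.67 over 13 tested genes. Among them Cxcl16, the ligand of CXCR6, was at 0.27 (SE 0.163, adjusted p = 0.282, edgeR).

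**Figure D4:**
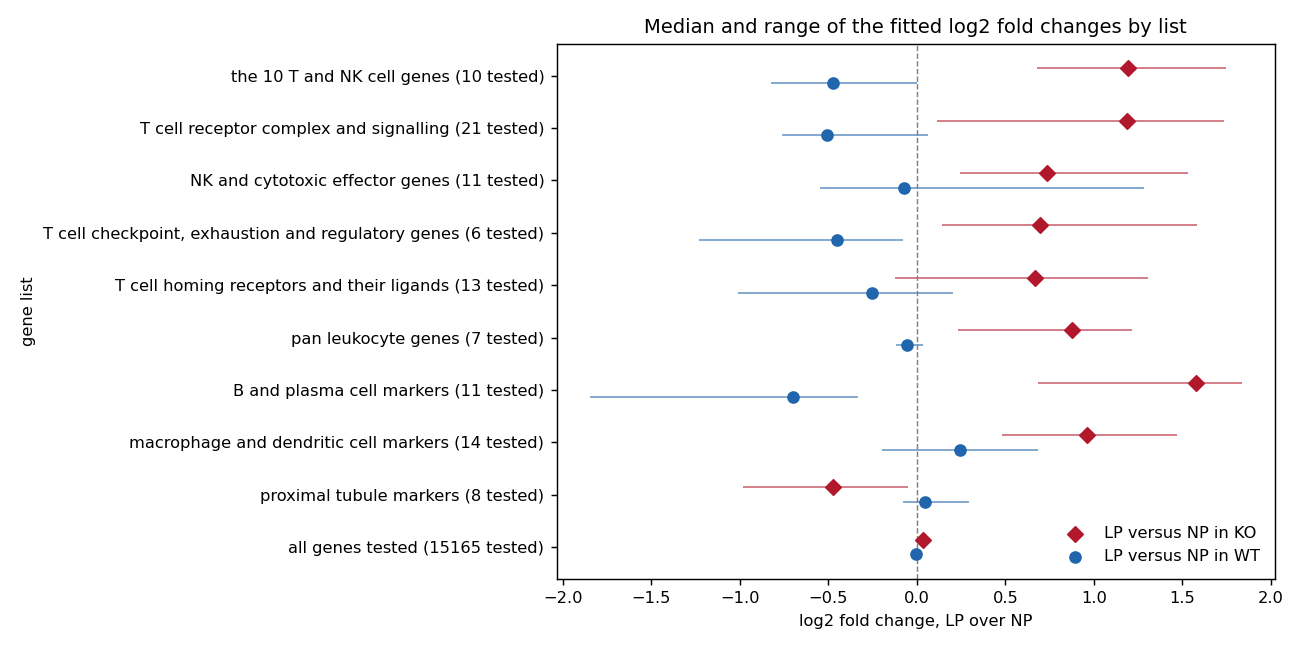
Median (points) and range over tested genes (lines) of the log2 fold change of LP over NP, in KO (diamonds) and in WT (circles), for the 10 genes and 8 other gene lists, with the median alone for all genes tested. In KO the medians of the 8 immune lists, the 10 genes included, lie above 0 and that of the proximal tubule list at -0.47.

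Values of other leukocytes are given beside those of the T cell genes. The summed pan leukocyte genes lay between 136.4 and 519.5 CPM in KO_LP and between 111.6 and 201.0 CPM in KO_NP, with 0 of 7 called and a median log2 fold change of 0.88. Rac2, a GTPase of blood cells, had the smallest p (1.21, adjusted p = 0.0596, edgeR). Macrophage and dendritic cell markers summed to 566 to 2029 CPM in KO_LP and 422 to 715 CPM in KO_NP, and 4 of 14 were called higher, where 3.59% of all genes were. The 4 were Cd14, a receptor for bacterial lipopolysaccharide (1.33, adjusted p = 0.0255), the integrin Itgam (1.47, adjusted p = 0.0491), C1qa of complement (1.10, adjusted p = 0.0477) and Cd74, the MHC class II invariant chain, which B cells also express (0.99, adjusted p = 0.0438), all by edgeR. KO_LP 4 held the 2029 CPM and was the highest KO_LP library for these 4 genes. B and plasma cell markers summed to 1544 to 20720 CPM in KO_LP and 1590 to 3915 CPM in KO_NP, with 0 of 11 called and a median of 1.58. Cd79a, which defines B cells, lay between 0 and 0.812 CPM over the 24 libraries. The part of these cells in the levels of Ccl5, Nkg7 and the other shared genes was not tested.

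The sum of proximal tubule markers lay between 3231 and 6528 CPM in every KO_LP library and between 6793 and 8163 CPM in every KO_NP library, without overlap. How often other sums separate in this way was not computed. Of 8 tested, 2 were called lower, where 543 of 15165 genes were. Slc34a1 fell by 0.68 (adjusted p = 0.0371) and the glucose transporter Slc5a2 fell by 0.69 (adjusted p = 0.0420, edgeR), with a list median of -0.47. The other 6 lay between -0.98 for Slc7a13 and -0.05 for Slc22a8. Of the adipocyte list, the defining marker Adipoq was at 0 to 0.0764 CPM in KO_LP and 0 to 1.42 CPM in KO_NP, and Fabp4, which endothelial cells also express, was the only gene of the list tested. Of the libraries that stood apart for the 10 genes, WT_LP 3 (4587 CPM) and WT_NP 1 (4442 CPM) had the lowest tubule sum of their group. KO_LP 4 held 3974 CPM. KO_LP 6, with the lowest sum of the 10 genes in KO_LP, held 3231 CPM, the lowest tubule sum of that group. Whether a lower tubule sum bears on the T cell values was not tested.

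Relative to Ptprc, which every leukocyte expresses, the summed 10 genes had a median ratio of 1.51 in KO_LP (range 1.19 to 2.17), 1.29 in KO_NP (0.985 to 1.72), 0.833 in WT_LP (0.549 to 1.48) and 1.26 in WT_NP (1.11 to 1.59). The KO_LP and KO_NP ranges overlapped widely. WT_LP held the lowest ratio of the 24 libraries.

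On LP, KO kidneys also had 3 of 11 B and plasma cell markers called higher than WT kidneys, where 2.93% of all genes were called in either direction: the antibody light chain Igkc by 2.17 (adjusted p = 0.0497), Jchain, which joins IgA and IgM units, by 2.38 (adjusted p = 0.0342) and Tnfrsf17, a receptor of plasma cells, by 2.60 (adjusted p = 0.0184, edgeR). None of the 21 T cell receptor genes was called in that contrast, with a median of 1.19, and none of the 14 macrophage and dendritic cell markers, with a median of 0.33.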

How the data were processed

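Kidney cortex RNA of 24 libraries in 4 groups of 6 was read with QuantSeq, 50 base forward reads per the labels. The authors deposited raw counts per gene, and normalized values, a signal equal to the counts divided by 1 size factor per library. The submitters' processing notes name the build GRCm38 and the tool DESeq2 1.22.2. Aligner, counter and strand setting: not given in the sources used here. The table held 16921 genes, none with a mean count under 3. The file gave 14208 symbols and GENCODE M21 gave 2668, with the coordinates; 45 identifiers had none.

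The count test was edgeR 4.0.16 in R 4.3.3, with filterByExpr (15165 genes tested, 1756 below the filter), TMM, and 1 robust quasi-likelihood fit of 4 group means over 24 libraries, with two-sided tests and Benjamini-Hochberg adjustment over all genes tested. Genes with an adjusted p under 0.05 are named as called. No batch is given in the labels, so a batch that followed the groups cannot be told apart from them. The biological coefficient of variation was 19.6%, and all 60 replicate pairs differed by more than counting error (5.63 to 66.5, as chi-square over its degrees of freedom). The procedure was tested on simulated data. Correlations used log2 CPM (prior count 2), with group means subtracted and 100000 permutations within groups.

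The 10 genes and the other gene lists were chosen with earlier results of these data known. The text names all 10 genes. From each other list it takes called genes, or else up to 3 with the smallest p for LP over NP in KO, not all of them described. It adds the 10 genes most like their mean. Cd2, Klrk1, Cxcl16, Esm1 and Fyco1 were chosen after their values were seen. One called gene of the homing list is not reported here.

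Alternatives were DESeq2 size factors, no count filter, a minimum of 5 CPM in 6 or more libraries, fits of only the libraries compared, DESeq2 1.42.0, limma 3.58.1 voom with quality weights, limma on the deposited normalized values as log2(value + 1), each library left out in turn, and, chosen after seeing the data, 3 libraries left out together. Figures were drawn in Python 3.11.15 with matplotlib 3.10.9.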

Additional observations from a re-analysis of the deposited data

Results flagged for a closer look

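Each group of 6 libraries was checked for 1 library whose gap to its nearest neighbour takes a larger share of the group's whole range than Dixon's 95% critical value for 6 values. For normally distributed values chance passes it in about 1 of 20 groups. That rate need not hold for CPM of low counts. Of 40 sets (10 genes in 4 groups), 15 passed it.

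In WT_LP the high library was WT_LP 3 in each of 6 sets. The share of the range taken by its gap was 0.836 for Pdcd1 (1.43 CPM), 0.776 for Ccl5 (40.9 CPM), 0.725 for Cd3d (6.35 CPM), 0.674 for Cd3g (2.04 CPM), 0.669 for Nkg7 (9.27 CPM) and 0.633 for Cd8a (5.74 CPM).

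In WT_NP the high library was WT_NP 1 in each of 5 sets. The share was 0.796 for Cd4 (4.17 CPM), 0.762 for Cxcr6 (11.1 CPM), 0.711 for Cd3d (9.38 CPM), 0.636 for Cd3e (2.97 CPM) and 0.626 for Cd3g (3.18 CPM).

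In KO_LP it was KO_LP 4, with 0.730 for Nkg7 (16.1 CPM), 0.691 for Cd3g (5.46 CPM) and 0.680 for Ccl5 (64.3 CPM). In KO_NP a low library stood apart: KO_NP 5 had 0 CPM of Pdcd1, with a gap of 0.640 of the range. The 10 genes share their libraries, so these sets are not independent of each other.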

How the results depend on the processing

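Of the 10 genes, the number called for LP over NP in KO was 1, against 4 with only the compared libraries, 6 by DESeq2, 6 by limma voom, 0 without the 3 libraries that stood apart (chosen after seeing the data) and 0 to 6 with 1 library left out. For KO over WT on LP it was 1, against 0 with the filter of 5 CPM in 6 libraries (which drops Gzmk), 0 with only the compared libraries, 4 by DESeq2, 7 by limma voom, 7 without those 3 libraries and 0 to 8 with 1 left out. DESeq2 size factors and no filter left both counts at 1. The other 3 contrasts stayed at 0 in every alternative run. Over all genes, the called number for LP over NP in KO (1087) was 1841 by DESeq2, 1693 by voom, 591 without the 3 libraries and 122 to 2006 with 1 left out. For KO over WT on LP (445) it was 903 by DESeq2, 877 by voom, 161 with only the compared libraries and 180 to 733 with 1 left out, and on NP (87) it was 228 by DESeq2, 140 by voom, 58 at 5 CPM and 52 to 151 with 1 left out. Where tested, the 10 genes kept a positive log2 fold change for LP over NP in KO and for KO over WT on LP in every alternative.

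Signs turned for 3 genes, none of them called. Cd8a for LP over NP in WT (0.0025) was -0.20 by voom, -0.19 by limma on normalized values, -0.23 without the 3 libraries and -0.52 to 0.29 with 1 left out. Cd4 in that contrast (-0.42) ran over -0.85 to 0.053 with 1 left out. For KO over WT on NP, Cd8a (-0.14) was 0.0047 by voom, 0.14 without the 3 libraries and -0.30 to 0.14 with 1 left out. Cxcr6 (-0.13) was 0.095 by voom, 0.0068 by limma on normalized values, 0.21 without the 3 libraries and -0.24 to 0.21 with 1 left out. The cause was not tested.

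No paired analysis was possible because the labels give no replicate numbers that groups share. Counts per library were 36 or fewer for Pdcd1 and 61 or fewer for Cd3e, which limits their precision. Genes of the other lists were not refitted with libraries left out.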

Other observations

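Libraries high for T cell genes were not always those high for B cell or lymphoid aggregate genes. B and plasma cell markers summed highest in KO_LP 5 (20720 CPM), where the 10 genes did not stand apart, against 4713 CPM in KO_LP 4. In WT_NP, WT_NP 1 was highest for both (15675 CPM of B and plasma cell markers). The lymphoid aggregate genes, of which Ltb and Cxcl13 were tested, summed highest in WT_LP 4 at 41.9 CPM, against 11.6 CPM in WT_LP 3 and 33.0 CPM in KO_LP 4. Neutrophil markers summed highest in KO_LP 6 at 73.5 CPM, of which S100a8 made up 36.3 and S100a9 26.3 CPM. KO_LP 6 was the library with the lowest value of 7 of the 10 genes in its group.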
